A study of Mus musculus with 26 samples.

Results

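The comparison described here set the GW3965 diet against the standard diet at day 22 of the AOM–DSS model of inflammation-driven colorectal cancer. Its members were chosen by their titles: 3 samples titled as GW3965 diet and 3 titled as standard diet at AOM–DSS day 22, 6 of the 26 colon samples sequenced. All 6 came from wild-type male C57BL/6J mice of about 10 weeks at the start. Both groups received azoxymethane (AOM, a carcinogen) at day 0, began their diet on that day, and were given dextran sodium sulfate (DSS, which injures the colonic epithelium) in the drinking water for 7 days from 1 week later, so that day 22 followed the first DSS course and a return to plain water. GW3965, a synthetic agonist of the liver X receptors (LXRs), was mixed into the same base diet that the standard group ate. Bulk RNA came from biopsies of the distal colon, and each sample may hold tissue pooled from several mice. The 3 standard diet samples came from 1 cage and the 3 GW3965 samples from another, so diet and cage cannot be told apart. The p-values therefore measure only the spread between samples of the same diet and day. The other 20 samples, of both diets at days 0 (the diets without AOM or DSS), 43 and 70, entered the fit to estimate the spread. The day 0 group of each diet pooled samples with 22 and with 43 days of diet.

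LXRα and LXRβ are nuclear receptors that bind oxysterols and pair with the retinoid X receptor on DNA. Their best known targets move cholesterol out of cells (Abca1, Abcg1, and the Abcg5–Abcg8 pair of the gut lining) and turn on fatty acid synthesis through Srebf1. In the colon, injury by DSS is followed by regrowth of the crypts, which are surrounded by fibroblasts that deposit matrix and supply Wnt and BMP signals to the epithelium.

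The 6 libraries held between 18195345 and 25358377 estimated counts. Counts on ribosomal protein genes made up between 6.06% and 10.7% of each library (two-sided exact permutation test between the diets, P = 0.6, where 0.1 is the smallest P that 3 samples against 3 allow). The RNA integrity number ran from 9.6 to 10 on the standard diet and from 9.1 to 9.6 on GW3965 (exact permutation test, P = 0.2). Defining epithelial genes were abundant in both diets: *Epcam* stood at 1506, 1142 and 1497 CPM (counts scaled to library size with TMM factors) in standard diet replicates 1, 2 and 3 and at 1318, 1082 and 1420 CPM in GW3965 replicates 1, 2 and 3. Values below follow this order of samples. The 12 pan-epithelial genes had a median log2 fold change of -0.11, with 0 of 12 past an unadjusted P of 0.05 in either direction. The gene-length profile set 2 libraries apart: genes with an effective length up to 500 bases deviated from the mean of the 6 libraries by a median of -0.285 (log2) in standard replicate 1 and 0.377 in GW3965 replicate 3, and genes over 4000 bases by 0.272 and -0.224. Across all genes the median log2 fold change between the diets went from 0.11 in the shortest class to -0.16 in the longest. Several results below are given also without both libraries, an alternative added after the data were seen.

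Of 17063 genes tested, 23 (0.135%) passed a false-discovery rate (FDR) of 0.05 in edgeR's quasi-likelihood test, 15 (0.0879%) higher and 8 (0.0469%) lower on the GW3965 diet. The 15 that rose were led by sterol and lipid genes (*Srebf1*, *Abcg1*, *Abcg5*, *Abca1*, *Scd2*, *Fads1*), the bile acid carrier *Fabp6*, the goblet cell product *Retnlb* and 3 mitochondrial genes (*Uqcrq*, *Ndufb6*, *Mrps18c*). The 8 that fell were *Ccn3*, *Col4a1*, *Col12a1*, *Spon2*, *Adam12*, *Slc17a4*, *Ppm1j* and *Tdrd1*, of which *Col4a1* was on the fibroblast and matrix list and *Ccn3* on the CCN and matricellular list. In each of the 23 genes all 3 samples of one diet lay beyond all 3 of the other, as they did in 12.1% of all genes with GW3965 higher and 11.5% with it lower. *Srebf1*, *Abcg1*, *Fabp6* and *Ccn3* were called whichever day 22 library was left out, *Retnlb* in 5 and *Slc17a4* in 4 of those 6 fits, and each of the other genes in at most 2. The number called was 15, 5 and 8 without standard replicates 1, 2 and 3, and 21, 6 and 6 without GW3965 replicates 1, 2 and 3. Without both libraries that stood apart by gene length 4 genes were called, and all 4 were among the 23. In whole tissue, fewer cells of a type and less RNA per cell cannot be told apart.

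**Figure D1:**
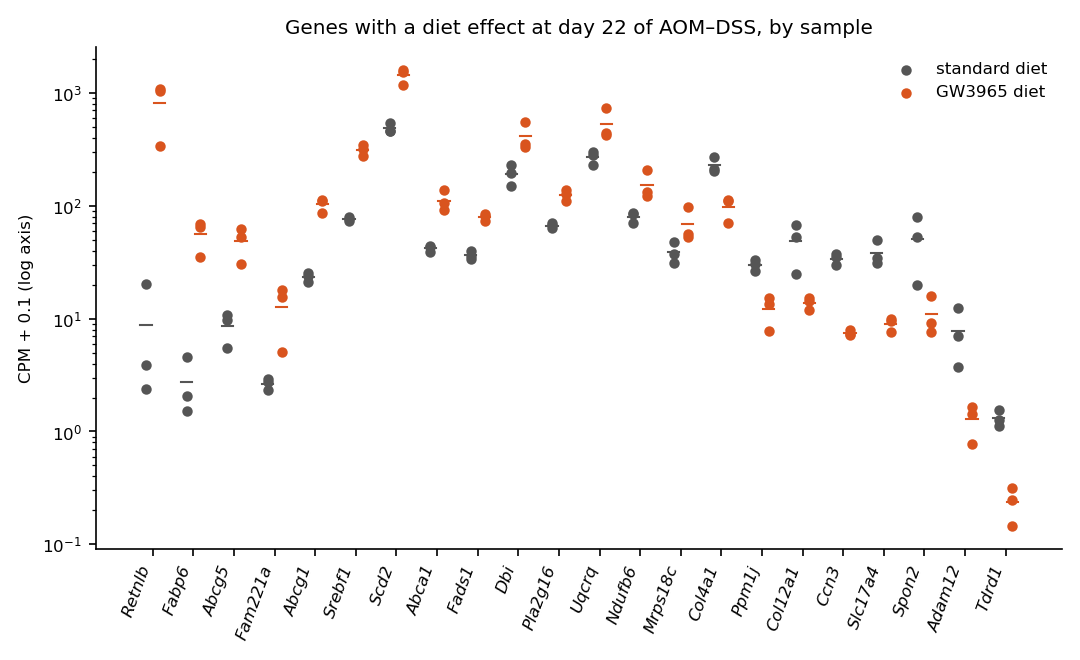
CPM plus 0.1 (log axis) of 22 genes with FDR under 0.05 in each of the 6 day 22 samples, grey for the standard diet and orange for GW3965, with short lines at the group means. Genes run from the largest rise (*Retnlb*) to the largest fall (*Tdrd1*), and the 2 diets do not overlap in any of them.

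Among the LXR targets, *Srebf1*, the transcription factor that drives fatty acid synthesis genes (chr11:60199089-60222581, minus strand, GRCm38), stood at 72.5, 78.7 and 76.7 CPM on the standard diet and at 320.3, 345 and 277 CPM on GW3965. It rose by a log2 fold change of 2.06 ± 0.19 (SE; edgeR quasi-likelihood, FDR = 1.74e-05), and every GW3965 sample was well above the narrow standard range. The promoters of 3 LXR targets are shown because they are the members of that list whose promoter window held a direct repeat spaced like an LXR response element. The capitals mark the half-site GGTNA, any 5 bases and GGTNA again, here on the opposite strand. Sequences are from RefSeq (GRCm38.p6), 250 bases before to 50 after the start site, read along the gene.

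Srebf1, chr11:60210422-60210721, minus strand: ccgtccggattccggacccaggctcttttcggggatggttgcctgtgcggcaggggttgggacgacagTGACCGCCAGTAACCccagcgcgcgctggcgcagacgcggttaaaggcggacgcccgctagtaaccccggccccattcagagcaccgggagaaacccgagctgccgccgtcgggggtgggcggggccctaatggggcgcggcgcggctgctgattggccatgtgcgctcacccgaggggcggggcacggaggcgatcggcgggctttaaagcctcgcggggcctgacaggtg
Abca1, chr4:53159846-53160145, minus strand: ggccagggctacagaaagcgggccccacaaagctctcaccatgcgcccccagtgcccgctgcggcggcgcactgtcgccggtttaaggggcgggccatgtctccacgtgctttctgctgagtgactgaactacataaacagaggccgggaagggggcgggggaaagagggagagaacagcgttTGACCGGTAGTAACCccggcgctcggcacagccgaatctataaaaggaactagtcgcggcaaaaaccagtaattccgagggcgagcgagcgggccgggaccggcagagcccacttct
Fasn, chr11:120824498-120824797, minus strand: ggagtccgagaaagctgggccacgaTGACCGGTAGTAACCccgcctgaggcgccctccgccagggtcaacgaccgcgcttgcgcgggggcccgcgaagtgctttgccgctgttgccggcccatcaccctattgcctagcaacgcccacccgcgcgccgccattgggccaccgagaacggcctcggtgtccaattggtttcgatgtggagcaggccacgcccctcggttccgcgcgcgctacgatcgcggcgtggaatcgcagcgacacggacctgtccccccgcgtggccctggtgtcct

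The repeat began 182 bases before the start site of *Srebf1*, 67 before that of *Abca1* and 225 before that of *Fasn*, with the same 15 letters in *Abca1* and *Fasn*. It was found in 3 of the 13 LXR targets with a promoter sequence (23.1%) and in 221 of 27025 genes (0.818%), on either strand. Of 20 fatty acid synthesis genes with a promoter, 3 held it (15%), among them *Fasn*, which is on both lists. In the other lists searched it was in 0 promoters. The window shown for *Srebf1* belongs to the start site nearest to that of the transcript Srebf1-207. In the TPM values deposited by the authors, which are scaled by transcript length and library size, Srebf1-207 stood at 3.03, 2.90 and 4.05 on the standard diet and at 26.9, 25.04 and 6.30 on GW3965. GW3965 replicate 3 was close to the standard samples in this transcript but not in Srebf1-201, which starts further upstream and stood at 14.4, 12.8 and 15.8 TPM against 39.4, 45.4 and 30.2 TPM. Nor was it close in Srebf1-203, which starts further downstream, at 0.62, 2.01 and 0.65 TPM against 16.6, 18.1 and 11.6 TPM. The split of reads between transcripts is an estimate, and no test was made on it.

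The sterol exporters moved together. *Abcg1*, which loads cholesterol onto lipoproteins, stood at 21.2, 25.3 and 23.9 CPM on the standard diet and at 112, 111 and 85.7 CPM on GW3965 (log2 fold change 2.16 ± 0.28, FDR = 0.00097). *Abca1*, which hands cholesterol to apolipoprotein A-I, rose from 43.4, 44.0 and 39.0 CPM to 105, 136 and 91.2 CPM (1.41 ± 0.27, FDR = 0.0335). *Abcg5*, one partner of the transporter that returns sterols to the gut lumen, rose from 5.37, 9.53 and 10.7 CPM to 62.3, 30.2 and 53.1 CPM (2.51 ± 0.43, FDR = 0.0145). Its partner *Abcg8*, which lies next to it on the opposite strand, stood at 3.44, 4.03 and 4.18 CPM against 20.0, 13.2 and 15.5 CPM (2.05 ± 0.42, FDR = 0.0569), without overlap. The kit's strandedness is not given in the sources used here, so reads where the pair overlaps could be split between them. Of the 20 LXR targets tested, 5 rose at an FDR of 0.05, and 10 were higher at an unadjusted P of 0.05 (5.21% of all genes were) and 0 lower (4.75% of all genes). The list had a median log2 fold change of 0.78, against -0.01 over all genes. Not every target was higher: *Apoe* stood at 876, 1157 and 1240 CPM against 1088, 1087 and 684 CPM (-0.19 ± 0.46), with overlapping groups. *Nr1h3*, which encodes LXRα, stood at 34.1, 24.1 and 28.6 CPM against 38.5, 36.9 and 42.9 CPM (0.36 ± 0.27, FDR = 0.716). With each day 22 library left out in turn, the number of LXR targets past an unadjusted P of 0.05 was 10 each time.

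Fatty acid synthesis genes were mostly higher on GW3965, with a log2 fold change above 0 in 22 of 25 (48.5% of all genes). *Scd2*, a desaturase that makes monounsaturated fatty acids, rose from 464, 463 and 542 CPM to 1523, 1603 and 1187 CPM (log2 fold change 1.61 ± 0.30, FDR = 0.0335). *Fads1*, which desaturates polyunsaturated fatty acids, rose from 33.9, 40.05 and 35.6 CPM to 81.5, 83.8 and 73.7 CPM (1.12 ± 0.19, FDR = 0.0145). Both had tight groups without overlap. *Fasn*, the fatty acid synthase itself, stood at 62.8, 52.5 and 49.1 CPM against 116, 163 and 109 CPM (1.26 ± 0.35, FDR = 0.152). *Scd1* stood at 89.3, 125 and 93.3 CPM against 372, 569 and 356 CPM (2.07 ± 0.61, FDR = 0.176). Neither passed the FDR, although their groups did not overlap. In the opposite direction, the triglyceride-forming enzyme *Dgat2* stood at 52.8, 74.8 and 111 CPM against 47.6, 27.4 and 23.9 CPM (-1.22 ± 0.39, FDR = 0.241) and the elongase *Elovl6* at 30.9, 24.05 and 29.9 CPM against 15.9, 17.6 and 16.7 CPM (-0.72 ± 0.29, FDR = 0.396). Over the 25 genes, 10 were higher (5.21% of all genes were) and 2 lower (4.75%) at an unadjusted P of 0.05, and the median was 0.56. Without the 2 libraries that stood apart by gene length, 6 were higher and 1 lower. Outside the list, *Dbi*, the acyl-CoA binding protein, rose from 150.5, 194 and 231 CPM to 329, 353 and 554 CPM (0.94 ± 0.17, FDR = 0.0274). *Pla2g16*, a phospholipase, rose from 63.1, 69.9 and 67.1 CPM to 127, 111 and 138 CPM (0.82 ± 0.16, FDR = 0.0391).

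All 25 genes of cholesterol synthesis and uptake had a log2 fold change above 0 (48.5% of all genes did), with a median of 0.73, but 0 passed the FDR. At an unadjusted P of 0.05, 11 were higher (5.21% of all genes were) and 0 lower. In 20 of 25 every GW3965 sample was above every standard sample (12.1% of all genes). The 3 of smallest P were enzymes of the pathway. *Pmvk*, which phosphorylates mevalonate phosphate, stood at 21.1, 25.2 and 36.7 CPM against 63.1, 56.5 and 55.2 CPM (1.05 ± 0.29, FDR = 0.152). *Lss*, which closes the sterol rings, stood at 20.6, 21.6 and 30.0 CPM against 47.4, 44.9 and 43.4 CPM (0.96 ± 0.33, FDR = 0.285). *Mvd*, which makes isopentenyl diphosphate, stood at 22.7, 32.3 and 47.9 CPM against 61.4, 64.5 and 64.4 CPM (0.86 ± 0.32, FDR = 0.326). In each of the 3 the GW3965 samples were close together and standard replicate 3 was the nearest to them. The count of 11 rested on single libraries: it was 2, 4 and 16 without standard replicates 1, 2 and 3, 7 and 6 without GW3965 replicates 1 and 2, and 1 without both libraries that stood apart, while the list's median stayed between 0.60 and 1.00 in those fits. At day 0, without AOM and DSS, the same list had a median of -0.59 and 12 of 25 genes lower at an unadjusted P of 0.05 on GW3965. Promoters of *Lss* and *Pmvk* are shown for the CCAAT box in capitals (as ATTGG where it lies on the opposite strand). Of the 17 list members with a promoter, 16 held this motif (94.1%), as did 41.1% of all genes. It was not particular to this list: 15 of 17 proliferation genes (88.2%), 10 of 13 LXR targets (76.9%) and 13 of 20 fatty acid synthesis genes (65%) held it. In the other lists searched the share ran from 22.2% (mucosal defence) to 50% (CCN and matricellular).

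Lss, chr10:76531355-76531654, plus strand: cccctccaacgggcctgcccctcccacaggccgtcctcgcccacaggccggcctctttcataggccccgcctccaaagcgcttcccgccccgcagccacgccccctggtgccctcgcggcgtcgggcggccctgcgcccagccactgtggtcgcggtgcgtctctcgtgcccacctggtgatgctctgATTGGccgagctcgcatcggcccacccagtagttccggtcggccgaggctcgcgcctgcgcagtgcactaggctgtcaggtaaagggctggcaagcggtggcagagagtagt
Pmvk, chr3:89454291-89454590, plus strand: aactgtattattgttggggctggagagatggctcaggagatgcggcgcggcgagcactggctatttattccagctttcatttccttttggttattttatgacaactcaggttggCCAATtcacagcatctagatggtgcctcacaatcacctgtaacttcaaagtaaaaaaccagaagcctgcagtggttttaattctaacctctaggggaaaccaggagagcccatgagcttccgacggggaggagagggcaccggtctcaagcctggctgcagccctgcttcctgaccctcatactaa

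The box began 62 bases before the start site of *Lss* and 136 before that of *Pmvk*. A sterol regulatory element with the letters TCACNCCAC was found in 1 of the 17 (*Hmgcs1*), against 1.44% of all genes, and the LXR-like repeat in 0 of the 17.

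*Fabp6*, a carrier of bile acids in the cytoplasm (chr11:43596049-43601540), stood at 4.46, 1.43 and 1.96 CPM on the standard diet and at 64.7, 35.1 and 68.2 CPM on GW3965. It rose by a log2 fold change of 4.51 ± 0.58 (edgeR quasi-likelihood, FDR = 0.00097), and the lowest GW3965 sample was far above the highest standard sample. *Slc51b*, a subunit of the basolateral bile acid exporter, stood at 12.3, 8.05 and 10.0 CPM against 55.3, 44.5 and 74.1 CPM (2.40 ± 0.62, FDR = 0.137). *Cyp27a1*, which makes the oxysterol 27-hydroxycholesterol, stood at 52.5, 31.4 and 23.6 CPM against 15.6, 14.98 and 14.1 CPM (-1.26 ± 0.37, FDR = 0.167). Over the 13 bile acid genes the median was -0.04, with 2 higher and 2 lower at an unadjusted P of 0.05. Over all genes, the background for each list of this paragraph, 5.21% were higher and 4.75% lower at that P. *Fabp6* also marks the ileum, so small-intestinal markers were set beside it: the 12 such genes tested had a median log2 fold change of 0.44, with 2 higher (*Treh* and *Ada*) and 0 lower at an unadjusted P of 0.05, and their mean log2 CPM was 2.06, 1.51 and 1.78 on the standard diet against 2.13, 2.20 and 2.26 on GW3965, without overlap. Their summed TPM overlapped, from 66.2 to 98.6 on the standard diet and from 85.3 to 93.3 on GW3965. The part of these markers in the *Fabp6* result was not tested. Among drug-metabolizing genes 5 of 34 were higher (5.21% of all genes were) and 2 lower (4.75%) at an unadjusted P of 0.05. *Cyp2c55*, a cytochrome P450 of the colon, stood at 4.67, 3.16 and 1.86 CPM against 0.160, 0 and 0.227 CPM (FDR = 0.0593). *Gsta1*, a glutathione transferase with close copies in the genome, stood at 11.3, 11.7 and 16.5 CPM against 41.6, 30.7 and 49.7 CPM (1.53 ± 0.37, FDR = 0.119). Fatty acid oxidation genes had a median of 0.03, with 2 of 26 higher and 1 lower at that P.

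Nuclear genes of the respiratory chain were slightly higher. *Uqcrq*, a subunit of complex III, rose from 229, 299 and 284 CPM to 427, 439 and 733 CPM (log2 fold change 0.77 ± 0.13, FDR = 0.0145). *Ndufb6*, a subunit of complex I, rose from 69.8, 85.8 and 83.6 CPM to 121, 133 and 207 CPM (0.76 ± 0.13, FDR = 0.0164). *Mrps18c*, a protein of the mitochondrial ribosome, rose from 31.3, 47.7 and 37.5 CPM to 53.2, 55.6 and 97.3 CPM (0.62 ± 0.11, FDR = 0.0145). GW3965 replicate 3 was the highest sample in all 3 genes. A list of 91 respiratory chain genes, added after these values were seen, had 66 genes higher and 0 lower at an unadjusted P of 0.05 and a median of 0.44. The median effective length of the list was 469 bases, and 11.02% of all genes up to 500 bases were higher at that P. Without the 2 libraries that stood apart by length, 53 of the 91 were higher and the median was 0.42, and without standard replicate 2 alone 38 were higher. The part of gene length in this result was not tested. A site of the factor NRF1 (GCGC, any base, TGCGC) were in the promoters of 19 of 73 list members (26%) and of 5.19% of all genes.

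**Figure D2:**
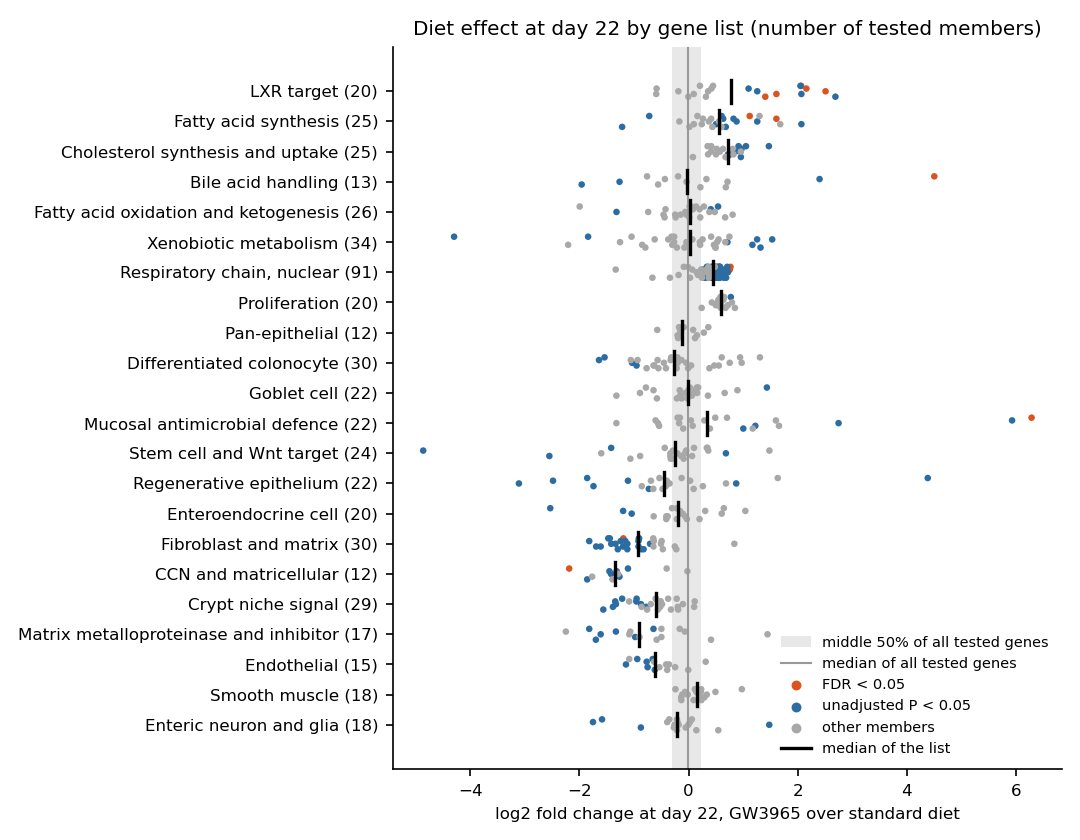
Log2 fold change at day 22 (GW3965 over standard diet) of each tested member of 22 gene lists, with the number of members in parentheses, a black bar at the list median and a grey band over the middle 50% of all genes (-0.30 to 0.23). List medians lie to the right of the band for LXR targets, fatty acid synthesis, cholesterol, respiratory chain, proliferation and mucosal defence. They lie to its left for regenerative epithelium, matrix, CCN, niche, metalloproteinase and endothelial genes.

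In the epithelium the largest difference was in *Retnlb*, a goblet cell protein with antibacterial activity (chr16:48816856-48818892). It stood at 2.26, 3.82 and 20.0 CPM on the standard diet and at 336, 1092 and 1033 CPM on GW3965. It rose by a log2 fold change of 6.29 ± 0.91 (edgeR quasi-likelihood, FDR = 0.0034), and the lowest GW3965 sample was far above the highest standard sample. Without standard replicate 2 the log2 fold change was 5.82 with an FDR of 0.0515. *Ang4*, an antimicrobial ribonuclease of the secretory lineage, stood at 3.28, 2.75 and 19.7 CPM against 86.9, 1119 and 762 CPM (5.93 ± 1.28, FDR = 0.0742). *Itln1*, a lectin that binds microbial sugars, stood at 3.76, 2.90 and 8.63 CPM against 13.3, 56.8 and 61.0 CPM (2.75 ± 0.91, FDR = 0.256). Standard replicate 3 was the highest of its group and GW3965 replicate 1 the lowest of its group in all 3 genes. *Ang4* belongs to a family with near-identical copies, between which reads can be divided. Of the 22 mucosal defence genes, 1 rose at the FDR, and 5 were higher (5.21% of all genes were) and 0 lower (4.75%) at an unadjusted P of 0.05. Without standard replicate 2, 3 were higher. The median of the list was 0.34. That median was 0.08 without GW3965 replicate 1 and 0.59 without standard replicate 3.

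Goblet cell genes as a whole did not share this pattern. *Muc2*, the main secreted mucin, stood at 281, 135 and 154 CPM against 108, 250 and 241 CPM (log2 fold change -0.02 ± 0.42, FDR = 1), with overlapping groups and a sign that turned in several alternative fits. *Clca1*, a protein of the mucus layer, stood at 1526, 463 and 953 CPM against 1370, 4120 and 2907 CPM (1.44 ± 0.67, FDR = 0.483). It was the 1 gene of 22 past an unadjusted P of 0.05, and the list's median was -0.01 (3 genes were higher without standard replicate 1, and 2 were lower without standard replicate 2). Of the genes of differentiated colonocytes, 4 of 30 were lower at that P and 0 higher, with a median of -0.27. Over all genes, the background for each list of this paragraph, 4.75% were lower and 5.21% higher at that P. *Mep1a*, a brush border protease, stood at 96.3, 39.8 and 47.4 CPM against 23.5, 13.6 and 20.2 CPM (-1.54 ± 0.51, FDR = 0.249). *Scnn1b*, a subunit of the epithelial sodium channel, stood at 26.9, 9.48 and 9.40 CPM against 5.35, 3.27 and 5.71 CPM (-1.64 ± 0.64, FDR = 0.372). Standard replicate 1 was the highest sample in both, and without it 1 gene of the list was lower, 4 were higher and the median was 0.10. *Slc17a4*, an anion transporter of the intestinal epithelium that was on no list, fell from 49.6, 34.0 and 31.1 CPM to 9.36, 7.52 and 9.74 CPM (-2.21 ± 0.34, FDR = 0.00633). Its groups did not overlap, and its FDR was 0.0811 without GW3965 replicate 2 and 0.0749 without GW3965 replicate 3. Enteroendocrine genes had 3 of 20 lower at an unadjusted P of 0.05, among them *Sst*, the hormone somatostatin, at 10.0, 10.2 and 11.7 CPM against 4.17, 5.32 and 4.80 CPM (-1.20 ± 0.44, FDR = 0.328). Without the 2 libraries that stood apart by gene length, 1 enteroendocrine gene was lower.

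Stem cell and Wnt target genes gave 1 higher and 3 lower of 24 at an unadjusted P of 0.05, with a median of -0.25. Over all genes, the background for both lists of this paragraph, 5.21% were higher and 4.75% lower at that P. *Lgr5*, the marker of crypt base stem cells, stood at 6.13, 3.62 and 3.67 CPM against 1.39, 3.95 and 2.40 CPM (log2 fold change -0.89 ± 0.82, FDR = 0.799), with overlap. *Prom1*, a membrane protein of crypt cells, stood at 128, 113 and 191 CPM against 58.1, 50.02 and 53.8 CPM (-1.42 ± 0.36, FDR = 0.137). *Notum*, a secreted Wnt inhibitor and Wnt target, stood at 1.24, 3.16 and 5.68 CPM against 0.374, 0 and 0 CPM (FDR = 0.237). The list of regenerative epithelium was split, with 2 of 22 higher and 6 lower at that P (3 lower without standard replicate 3). *Sprr2h*, a small proline-rich protein with close copies, stood at 0.376, 0.968 and 3.05 CPM against 26.7, 8.49 and 57.3 CPM (4.39 ± 1.03, FDR = 0.113). *Areg*, an EGFR ligand that the study examined, stood at 7.2, 16.9 and 37.6 CPM against 35.2, 15.2 and 49.3 CPM (0.69 ± 0.68, FDR = 0.816), with overlap. Its difference was within the spread of both groups.

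Proliferation genes all had a log2 fold change above 0, 20 of 20 with a median of 0.59, but 2 of 20 passed an unadjusted P of 0.05 and 0 the FDR. Of all genes, 48.5% were above 0 and 5.21% were higher at that P. In 6 of 20 every GW3965 sample was above every standard sample (12.1% of all genes). *Birc5*, a mitotic regulator, stood at 13.1, 24.97 and 34.0 CPM against 34.4, 47.6 and 51.8 CPM (log2 fold change 0.78 ± 0.33, FDR = 0.415). *Tyms*, which makes thymidylate for DNA synthesis, stood at 20.4, 28.0 and 37.3 CPM against 38.3, 53.4 and 42.4 CPM (0.58 ± 0.26, FDR = 0.462). The highest standard sample was just below the lowest GW3965 sample in both. *Mki67* overlapped, at 62.7, 42.9 and 55.1 CPM against 60.8, 89.1 and 58.3 CPM. The count of 2 became 0 without standard replicate 1, standard replicate 2 or GW3965 replicate 2, and 10 without standard replicate 3.

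**Figure D3:**
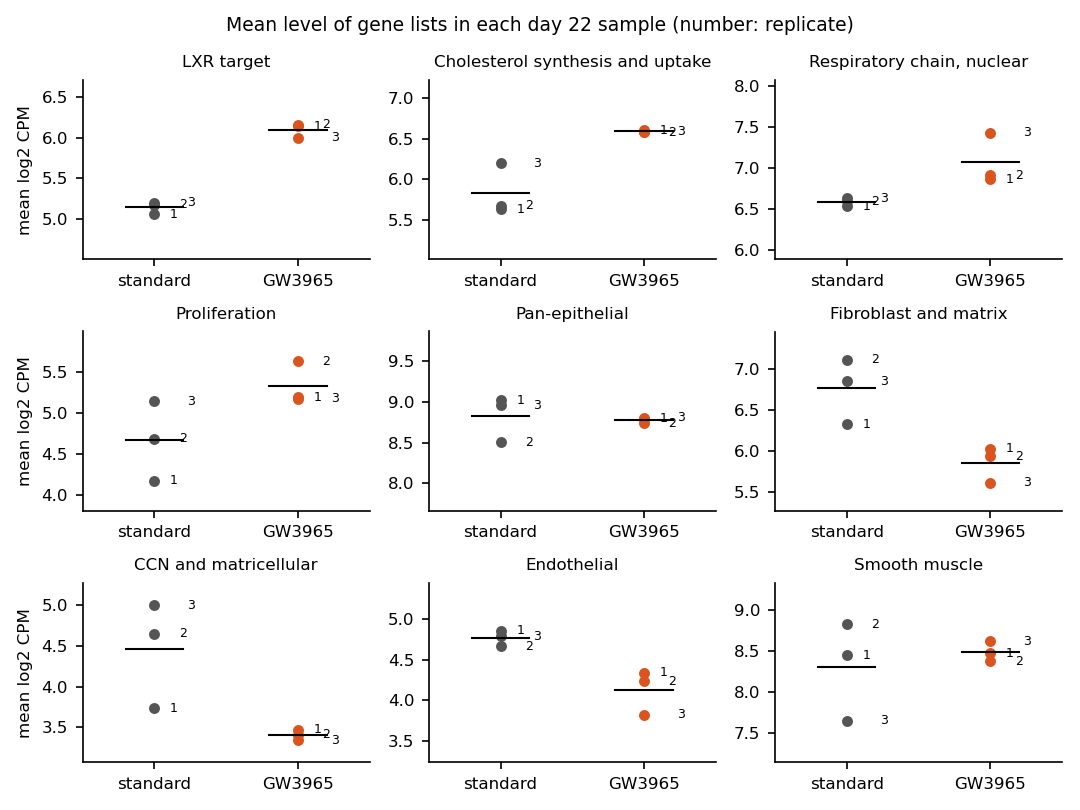
Mean log2 CPM of the members of 9 gene lists in each day 22 sample (points, numbered by replicate) with the group mean as a line. The LXR target, cholesterol, respiratory chain, proliferation, matrix, CCN and endothelial means do not overlap between the diets, and the pan-epithelial and smooth muscle means do.

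Matrix, matricellular, crypt niche and endothelial genes were mostly lower on GW3965, while smooth muscle and fat markers were not. *Ccn3*, a secreted matricellular protein (chr15:54745702-54754039), stood at 29.9, 35.0 and 37.0 CPM on the standard diet and at 7.22, 7.03 and 7.79 CPM on GW3965. It fell by a log2 fold change of -2.19 ± 0.29 (edgeR quasi-likelihood, FDR = 0.00125), with both groups tight and far apart. *Col4a1*, a chain of basement membrane collagen, fell from 213, 205 and 272 CPM to 109.8, 112 and 70.0 CPM (-1.19 ± 0.23, FDR = 0.0391). *Col12a1*, a collagen that coats fibrils, fell from 24.99, 52.8 and 67.8 CPM to 14.1, 15.3 and 11.9 CPM (-1.84 ± 0.36, FDR = 0.044). *Spon2*, an extracellular matrix protein, fell from 19.6, 52.5 and 79.3 CPM to 15.8, 9.13 and 7.52 CPM (-2.23 ± 0.42, FDR = 0.0335), and *Adam12*, a membrane metalloprotease of activated mesenchyme, from 3.65, 12.3 and 6.87 CPM to 1.34, 1.56 and 0.680 CPM (-2.67 ± 0.48, FDR = 0.0263). Standard replicate 1 was the lowest of its group in *Col12a1*, *Spon2* and *Adam12*, and still above every GW3965 sample.

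Of 30 fibroblast and matrix genes, 29 had a log2 fold change below 0, 21 were lower at an unadjusted P of 0.05 and 0 higher, and 1 fell at the FDR. Of all genes, 48.5% had a log2 fold change above 0, and 4.75% were lower and 5.21% higher at that P. The median of the list was -0.92. *Col1a1*, the main chain of fibrillar collagen, stood at 171, 439 and 336 CPM against 112, 103 and 71.1 CPM (log2 fold change -1.69 ± 0.49, FDR = 0.162), without overlap. *Mmp2*, a gelatinase of fibroblasts, stood at 76.3, 132 and 161 CPM against 43.0, 37.9 and 20.5 CPM (-1.82 ± 0.39, FDR = 0.0697). *Col18a1*, a basement membrane collagen, stood at 63.8, 104 and 178 CPM against 53.4, 44.0 and 27.9 CPM (-1.42 ± 0.32, FDR = 0.093). Matrix genes are long, with a median effective length of 3513 bases. At an unadjusted P of 0.05, 5.16% of all genes between 2000 and 4000 bases were lower, and 8.3% of longer genes. Without the 2 libraries that stood apart by gene length, 19 of the 30 were lower at an unadjusted P of 0.05 and the median was -1.07, and with single libraries left out the count ran from 15 to 24. The summed TPM of the list was 1804, 3594 and 2985 on the standard diet and 1690, 1472 and 1004 on GW3965, so standard replicate 1 was near the GW3965 range.

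The other stromal lists differed in how far they took part. All 12 CCN and matricellular genes had a log2 fold change below 0, with a median of -1.36, and 7 were lower at an unadjusted P of 0.05 (4 without standard replicate 3). Over all genes, the background for each list of this paragraph, 4.75% were lower and 5.21% higher at that P. *Tnc*, a matrix glycoprotein of wound repair, stood at 43.9, 75.3 and 73.7 CPM against 25.2, 22.7 and 23.6 CPM (log2 fold change -1.45 ± 0.36, FDR = 0.130), and *Ccn1*, a target of YAP, at 10.8, 23.7 and 134 CPM against 11.5, 9.08 and 35.7 CPM (-1.86 ± 0.74, FDR = 0.377). *Tnc* did not overlap and *Ccn1* did. Crypt niche signals gave 9 of 29 lower and 0 higher, among them *Bmp4*, a signal for differentiation, at 33.6, 38.3 and 57.3 CPM against 22.8, 24.4 and 18.7 CPM (-0.95 ± 0.23, FDR = 0.120) and *Wnt5a*, a noncanonical Wnt ligand, at 19.6, 20.0 and 31.7 CPM against 11.2, 10.1 and 6.12 CPM (-1.34 ± 0.34, FDR = 0.137). Metalloproteinases and their inhibitors gave 6 of 17 lower and 0 higher, with a median of -0.90 (3 lower and 1 higher without standard replicate 3).

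Endothelial genes were lower in 13 of 15 without overlap (11.5% of all genes were). At an unadjusted P of 0.05, 6 were lower (4.75% of all genes), and the median was -0.62. *Kdr*, the main VEGF receptor, stood at 22.3, 15.1 and 17.6 CPM against 11.5, 10.8 and 5.26 CPM (log2 fold change -0.94 ± 0.28, FDR = 0.174). *Cldn5*, the tight junction claudin of vessels, stood at 27.2, 36.6 and 31.9 CPM against 16.6, 12.7 and 13.8 CPM (-1.15 ± 0.41, FDR = 0.304). The count was 3 without standard replicate 2, 3 without GW3965 replicate 3 and 2 without both libraries that stood apart, with medians of -0.54, -0.59 and -0.59. Smooth muscle genes did not follow: 0 of 18 passed an unadjusted P of 0.05, and *Acta2*, smooth muscle actin, stood at 869, 1295 and 720 CPM against 1105, 956 and 1120 CPM (0.23 ± 0.50). Enteric neuron and glia genes gave 1 of 18 higher and 3 lower, with *Tac1*, which encodes substance P, at 24.4, 30.2 and 35.6 CPM against 105, 63.7 and 96.7 CPM (1.48 ± 0.52, FDR = 0.296). *Ret*, the GDNF co-receptor of enteric neurons, stood at 9.24, 19.4 and 22.2 CPM against 6.63, 5.81 and 4.53 CPM (-1.59 ± 0.39, FDR = 0.126). Markers of fat tissue had a median log2 fold change of 1.66, with 7 of 10 above 0 and 1 higher at an unadjusted P of 0.05, and a summed TPM from 14.6 to 36.9 on the standard diet and from 20.3 to 84.0 on GW3965.

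Among the remaining called genes, 3 belonged to none of these groups. *Fam221a* rose from 2.79, 2.24 and 2.63 CPM to 4.92, 15.5 and 17.7 CPM (2.18 ± 0.37, FDR = 0.0145). *Ppm1j*, a protein phosphatase, fell from 30.4, 26.1 and 33.2 CPM to 13.5, 7.71 and 15.2 CPM (-1.42 ± 0.28, FDR = 0.0391). *Tdrd1*, known from the germline piRNA pathway, fell from 1.02, 1.17 and 1.45 CPM to 0.214, 0.146 and 0.0453 CPM (-3.04 ± 0.61, FDR = 0.0472). *Tdrd1* was scarce in all 6 samples, and its fold change rests on few reads.

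The genes called at every timepoint were 4 of the 20 LXR targets tested. The number of genes past the FDR was 5 (0.0293%, all 5 higher) at day 0, 5 (0.0293%, all 5 higher) at day 43, and 312 (1.83%) at day 70, of which 298 (1.75%) were higher and 14 (0.082%) lower. *Srebf1*, *Abcg1*, *Abcg5* and *Abca1* were called at all 4 timepoints, and of the other 19 genes called at day 22, *Ccn3* was called again at day 70. At an unadjusted P of 0.05, 9 of the 20 LXR targets were higher at day 0 (0.539% of all genes), 11 at day 43 (3.6%) and 15 at day 70 (13.4%). Of the 30 fibroblast and matrix genes, 0 were lower at day 0 (1.4% of all genes), 17 at day 43 (5.05%) and 0 at day 70 (5.39%), with medians of -0.17, -0.76 and 0.25. The day 43 samples of each diet came from the same cage as its day 22 samples, and those of days 0 and 70 from other cages. Respiratory chain genes were higher in 0, 23 and 3 of 91 at days 0, 43 and 70. *Srebf1* had log2 fold changes of 2.23, 1.81 and 1.66 at those days, and *Fabp6* of 1.501, 1.88 and 1.22 beside its 4.51 at day 22. For *Ccn3* the values were -0.53, -0.98 and -1.86, and for *Col1a1* -0.22, -1.13 and -0.18.

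The diet effect at day 22 was also set against that of each other timepoint in the same edgeR quasi-likelihood fit, as a test of the difference. Against day 0 the difference passed the FDR in 4 genes (0.0234%) and an unadjusted P of 0.05 in 1065 (6.24%). Against day 70 it passed the FDR in 4 (0.0234%), with 20.2% of genes past an unadjusted P of 0.05. Against day 43 it did so in 0 (0.0%), where 723 genes (4.24%) passed an unadjusted P of 0.05 and 20 passed the FDR in DESeq2. *Retnlb* differed from both day 0 (8.10 ± 1.39, FDR = 0.0423) and day 70 (6.87 ± 1.14, FDR = 0.0366). Its level was at most 0.991 CPM in all 8 samples of day 0. It stood at 21.8, 34.1 and 31.4 CPM on the standard diet and 80.6, 259 and 34.6 CPM on GW3965 at day 43, and at 52.4, 36.4 and 30.8 CPM against 4.25, 30.6 and 34.3 CPM at day 70. The diets did not overlap at day 43, where the nearest samples were almost equal, and they overlapped at day 70.

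**Figure D4:**
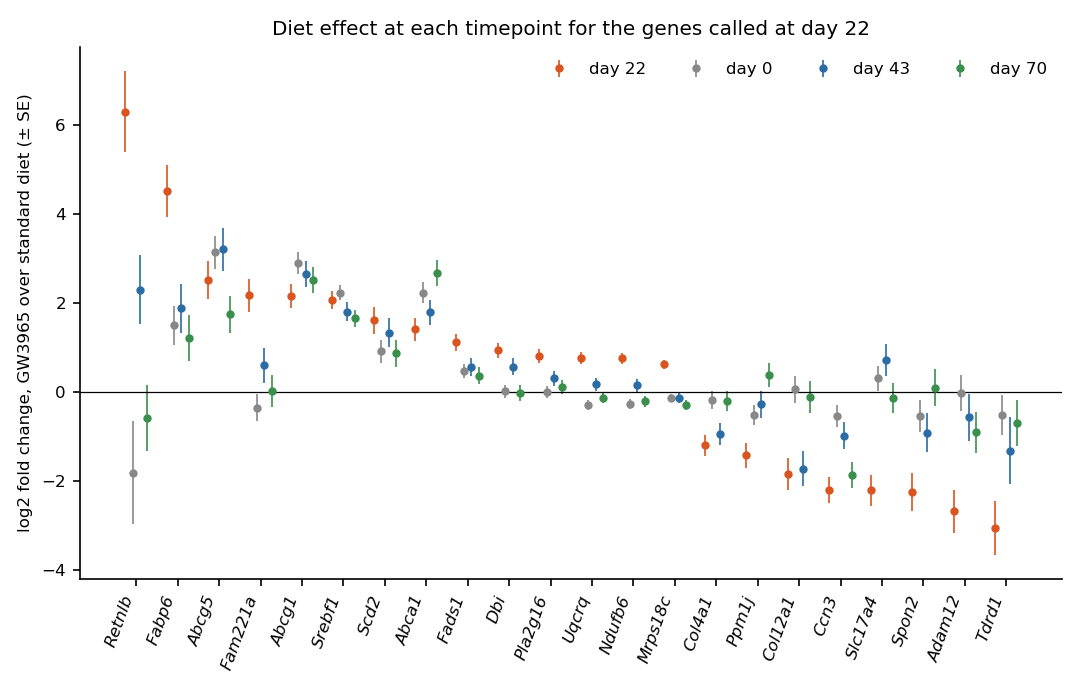
Log2 fold change (GW3965 over standard diet, ± SE) at each timepoint for 22 genes called at day 22. *Srebf1*, *Abcg1*, *Abcg5* and *Abca1* lie above 0 at all 4 timepoints, and *Uqcrq* and *Ndufb6* are above 0 at day 22 and below 0 at day 0.

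**Figure D5:**
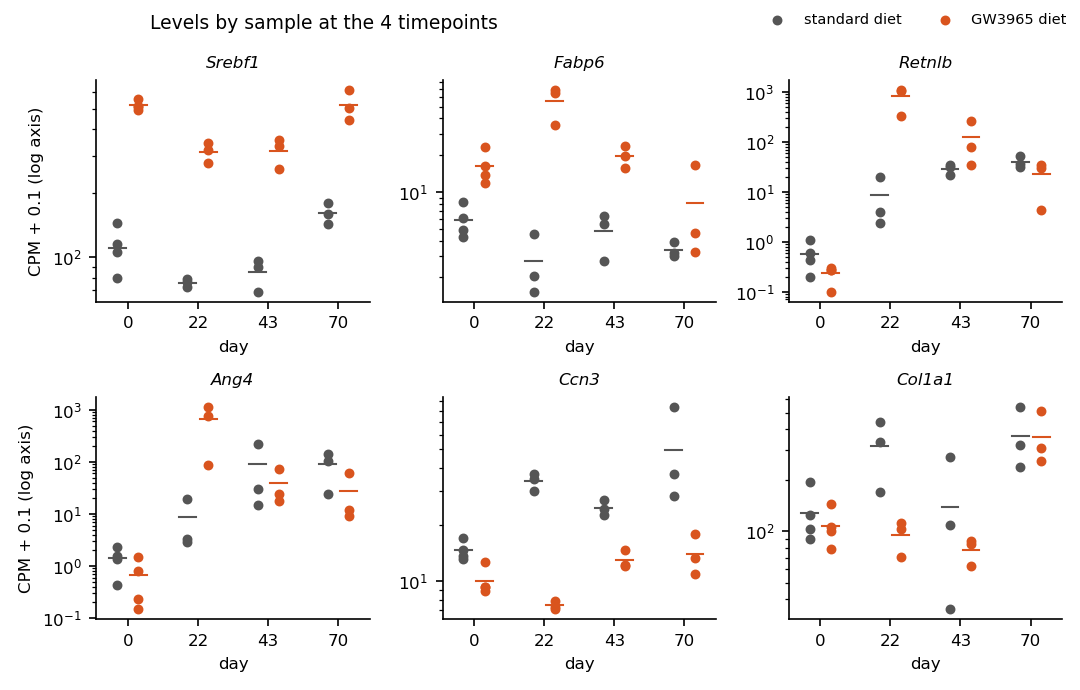
CPM plus 0.1 (log axis) of 6 genes in each sample of the 4 timepoints, grey for the standard diet and orange for GW3965, with lines at the group means. *Retnlb* is near 0 at day 0 in both diets and separates them most at day 22, when *Col1a1* also lies apart. *Ccn3* is lower on GW3965 without overlap at all 4 timepoints.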

How the data were processed

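Reads (paired-end) were assigned to GRCm38 transcripts by the authors with kallisto. They deposited, per transcript, estimated counts (not normalized) and TPM beside the transcript lengths. Versions are not given in the sources used here. Of 119414 transcripts, 116728 were matched to GENCODE genes of GRCm38, summed to 35975 genes and rounded. The 17063 genes kept by filterByExpr over 8 groups of diet and day were fitted with edgeR 4.0.16 (R 4.3.3): TMM, 8 groups, and the ribosomal protein share of counts (88 genes, in percent) as a term (17 residual degrees of freedom), quasi-likelihood F-test, Benjamini-Hochberg FDR under 0.05. limma 3.58.1, DESeq2 1.42.0, pandas 2.3.3 and numpy 2.4.6 were also used. Fold changes are GW3965 over standard diet, and estimated counts carry counting and assignment error.

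Genes were named where they passed the FDR, as the 3 of smallest P under 0.05 in a gene list, or as *Epcam*, *Lgr5*, *Muc2*, *Col1a1*, *Acta2* and *Areg*. *Abcg8*, *Apoe*, *Nr1h3*, *Scd1*, *Dgat2*, *Elovl6*, *Mki67*, *Ccn1*, *Hmgcs1* and the *Srebf1* transcripts were chosen after their values were seen. The samples and gene lists were chosen with earlier results of these data known. Lists received no test. Some items are not reported here. On simulated counts for the day 22 comparison (16914 genes, 200 changed by a log2 fold change of 2), 137 of the 200 (68.5%) were recovered and 7 others called. The simulated spread followed the trend with expression level, not each gene's own spread. It held no effect of cage, RNA quality or gene length, so recovery in the real data can differ. 1 day 0 sample with conflicting diet labels was placed by its title. Day 22 replicate numbers did not pair the samples across diets. Alternatives changed the test, covariates, scaling, filter and samples.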

Additional observations from a re-analysis of the deposited data

Results flagged for a closer look

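For 5 of the genes named above, a test of the difference itself in the edgeR quasi-likelihood fit separated day 22 from another timepoint in the effect of the diet. For *Retnlb* the log2 difference was 8.10 against day 0 (FDR = 0.0423) and 6.87 against day 70 (FDR = 0.0366). For *Slc17a4* it was -2.52 against day 0 (FDR = 0.0423), since the log2 fold change was -2.21 on day 22 and 0.31 on day 0. *Uqcrq* differed from day 0 by 1.055 (FDR = 0.0423) and *Ndufb6* by 1.02 (FDR = 0.0423), both above 0 at day 22 and below 0 at day 0. *Mrps18c* differed from day 70 by 0.91 (FDR = 0.0366). None of these differences passed the FDR when the 2 day 22 libraries that stood apart by gene length were left out.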

How the results depend on the processing

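With the alternatives below, 23 genes called at day 22 (15 higher, 8 lower) became 305 (172, 133) with DESeq2, 13 (9, 4) without the ribosomal term, 77 (53, 24) and 10 (9, 1) in the 6 day 22 samples without and with that term, 11 (7, 4) in 12 samples of days 22 and 43, 53 (33, 20) with RNA integrity, 61 (39, 22) without the day 43 sample of lowest integrity, and 4 (3, 1) without the 2 libraries that stood apart by gene length. The 6-sample fit with the term and the 2-library fit were chosen after seeing the data. Genes lower were 5 with RLE factors (75% of calls higher, 65.2% otherwise), 5 with length offsets (79.2% higher) and 3 without the day 0 sample of conflicting label. Leaving out 1 day 22 library gave 5 to 21 calls, 3 to 13 higher and 1 to 10 lower. Replicate numbers share only a number (correlations of deviations -0.0468, -0.113 and -0.00955): with a replicate block 4 genes were called (2 higher, 2 lower) and 0 differed from days 0 or 70. Differences from day 0 (4 genes) became 105 with DESeq2 and 0 without the ribosomal term, without a filter, without the conflicting label or without the 2 libraries, and 0 to 2 without 1 library. Differences from day 70 (4) became 933 with DESeq2, 42 without the ribosomal term, 287 with RNA integrity, 590 without the low-integrity sample, 2 without a filter, 0 with length offsets or without the 2 libraries, and 0 to 8 without 1 library. Differences from day 43 (0) became 20 with DESeq2. The sign turned for *Muc2* (0.0728 without the ribosomal term, 0.0818 and 0.0856 in 6 samples, -0.32 to 0.41 without 1 library, 0.37 without the 2 libraries), *Tpsb2* (-3.55 to 0.55 without 1 library, above 0 without standard replicate 2), and *Acta2* (-0.16) and *Areg* (-0.20) without the 2 libraries. The causes were not tested. *Srebf1* and *Ccn3* passed the FDR in all 22 alternatives, *Abcg1* and *Fabp6* in 21 and *Retnlb* in 17. Differences smaller than a log2 fold change of 2 were not simulated.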

Other observations

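Immune genes showed few differences at day 22. B cell (15), plasma cell (9) and T cell (14) genes had 0 members past an unadjusted P of 0.05, with medians of -0.22, 0.12 and -0.32. Of 16 monocyte and macrophage genes 1 was lower, *Cx3cr1*, a receptor of resident macrophages, at 18.4, 21.8 and 21.6 CPM on the standard diet and 10.6, 8.59 and 6.03 CPM on GW3965 (log2 fold change -1.29 ± 0.39, edgeR quasi-likelihood FDR = 0.190), without overlap. Neutrophil genes had a median of -0.86, with standard replicates 2 and 3 high and replicate 1 low. Without standard replicate 3 the median was -0.09 with 2 genes higher and 0 lower, and without the 2 libraries that stood apart by gene length it was -1.76. *Mmp9*, a protease of neutrophil granules, stood at 5.96, 26.3 and 41.1 CPM against 11.1, 4.54 and 6.98 CPM (FDR = 0.332). Cytokine genes were mixed. *Ifng*, made by T and NK cells, stood at 0.107, 1.22 and 0.982 CPM against 6.74, 3.71 and 14.3 CPM (3.08 ± 1.16, FDR = 0.348), without overlap, and *Il11*, a fibroblast cytokine, at 0.806, 9.22 and 17.9 CPM against 2.09, 1.07 and 1.99 CPM (-2.59 ± 0.82, FDR = 0.229), with overlap. Mast cell genes gave 3 of 11 lower at an unadjusted P of 0.05 (4.75% of all genes were), and 0 without GW3965 replicate 3. The count was 1 without GW3965 replicate 2 and 1 without standard replicate 2, the sample in which *Tpsb2*, a mast cell tryptase, stood at 24.2 CPM against at most 3.31 CPM in the other 5. Tuft cell (13), squamous (18), skeletal muscle (12) and Hox (26) genes had 0 members past that P.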
